A study of Arabidopsis thaliana with 12 samples.

Results

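AT2G47950 and AT2G47960 are consecutive protein-coding genes of Arabidopsis chromosome 2, with no annotated locus between them in the gene table used here. They were chosen from their responses to dexamethasone (DEX) in these same arrays, and they are 2 of the 13286 genes that had a probe set naming no other gene. Each was read by a lone probe set, so no second one checks either value. Because the choice used the DEX response, the levels and changes of both genes are given as a description, with no test.

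The cells were protoplasts, cells freed of their walls, from roots of the ecotype Columbia, carrying the transcription factor ABI3 in the form labelled ABI3-GR. The labels say that DEX drives the factor into the nucleus and that cycloheximide (CHX) stops the making of proteins. The 4 groups, of 3 arrays each, received neither treatment, 10 µM DEX alone, 35 µM CHX alone, or 10 µM DEX and 35 µM CHX together, and all 4 held the transformed cells. Cells without the construct were not analysed here, so a response to DEX itself and one to nuclear ABI3 cannot be told apart here. The labels do not say that replicates came from separate preparations, so any p-value measures only the spread between these samples.

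ABI3 is a B3-domain transcription factor that acts with abscisic acid to switch on the genes of seed maturation, such as those for storage proteins and for the LEA proteins that protect drying embryos. A gene that responds to the factor while translation is blocked does so without a newly made protein in between, which is the question the DEX and CHX combination addresses. From background knowledge, AT2G47960 encodes a relative of a subunit of TRAPP, a complex that tethers transport vesicles to their target membranes. The gene table used here gives no product name for it or for AT2G47950, whose role is not stated here.

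Values are intensities as deposited, 1 per probe set and array, or their log2. Median intensities of the 12 arrays ran from 115.5 to 220.8, and 2.84% to 17.9% of probe sets lay at or under the floor of 16. Neither of the 2 genes was at that floor on any array. Hybridisation controls, spiked in after labelling, were weak on replicate 1 of CHX alone: their geometric mean there was 214.9, where the other 11 arrays had 7102 to 12904. Of 17 root markers, 4 had a probe set of their own. Their mean log2 level was 10.78 to 11.05 on untreated arrays, 10.69 to 11.00 with DEX, 7.54 to 7.73 with CHX and 6.37 to 7.10 with both. PYK10, a root beta-glucosidase gene, led them at 13.30 ± 0.21 (SD, n = 3) untreated and 8.55 ± 0.11 (SD, n = 3) with CHX. Of 15 leaf markers 1 was measured, LHCB4.1, an antenna protein gene of photosystem II, at 8.48 ± 0.09 (SD, n = 3) untreated and 9.39 ± 0.38 (SD, n = 3) with both. In bulk samples fewer cells of a type and less RNA per cell cannot be told apart.

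AT2G47950 was low wherever DEX was missing and high wherever it was present. Its intensity was 137.0, 158.2 and 165.0 on the untreated arrays, and 1505, 1563 and 1215 with DEX alone. With CHX alone it was 88.4, 130.2 and 148.9, and with both treatments 3253, 2043 and 6352. All 6 arrays with DEX lay above all 6 without it, and the lowest array with DEX alone stood 7.37-fold above the highest untreated array. With CHX in the cells, the lowest array with DEX stood 13.7-fold above the highest without.

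In log2 units AT2G47950 stood at 7.26 ± 0.14 (SD, n = 3) untreated, 10.47 ± 0.20 (SD, n = 3) with DEX, 6.90 ± 0.39 (SD, n = 3) with CHX and 11.77 ± 0.82 (SD, n = 3) with both. The order from low to high was CHX alone, untreated, DEX alone, both. The lowest pair in that order overlapped, and the other neighbours in it did not. The group with both treatments was the most spread, with a 3.11-fold range against 1.20-fold in the untreated group. The fitted difference with DEX was 3.21 on the log2 scale without CHX (SE 0.34, n = 3 per group) and 4.86 with CHX (SE 0.34, n = 3 per group). Among all 22746 probe sets tested, these differences ranked 2 and 1 from the highest, where those of AT2G47960 ranked 2854 and 12. Both genes were chosen on their DEX response, so nothing is read from the ranks.

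AT2G47960 followed another course, set mostly by its low level with CHX alone. Its intensity was 240.4, 220.4 and 143.9 on the untreated arrays, and 256.3, 357.9 and 472.3 with DEX alone. With CHX alone it was 69.6, 45.4 and 45.9, and with both treatments 358.1, 187.7 and 411.8. The 3 arrays with CHX alone were the lowest of the 12. The other 3 groups lay close together: the lowest array with DEX alone stood only 1.07-fold above the highest untreated array, and the group with both treatments overlapped both of them.

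In log2 units AT2G47960 stood at 7.62 ± 0.40 (SD, n = 3) untreated, 8.46 ± 0.44 (SD, n = 3) with DEX, 5.71 ± 0.35 (SD, n = 3) with CHX and 8.24 ± 0.60 (SD, n = 3) with both. From low to high the order was CHX alone, untreated, both, DEX alone. CHX alone and untreated did not overlap, while untreated and both overlapped, as did both and DEX alone. The difference with DEX was 0.84 on the log2 scale without CHX (SE 0.40, n = 3 per group) and 2.53 with CHX (SE 0.40, n = 3 per group), or 1.78-fold and 5.76-fold. The second of these is measured from the low level with CHX alone. Against untreated cells the group with both treatments differed by 0.62 (SE 0.40), or 1.54-fold, where AT2G47950 differed by 4.51 (SE 0.34), or 22.8-fold.

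**Figure D1:**
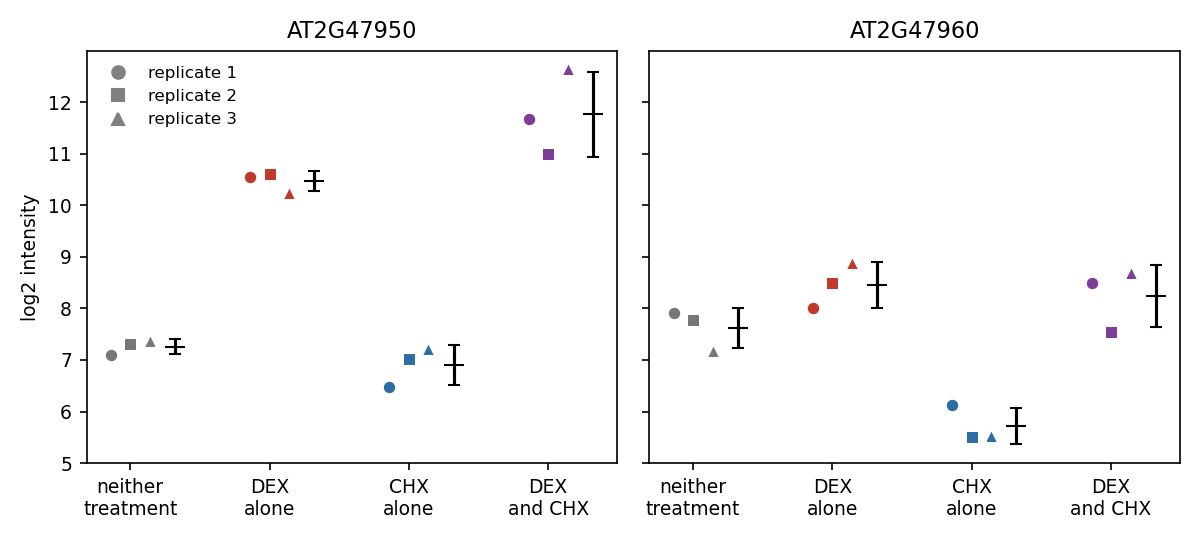
Log2 intensity (vertical axis) of AT2G47950 and AT2G47960 on each of the 12 arrays, by treatment group. Points are arrays, with a shape for each replicate number, and bars are group means with 1 SD over 3 arrays. AT2G47950 stands high in both groups with DEX, at means of 10.47 and 11.77, while AT2G47960 stands apart mainly with CHX alone, at 5.71.

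For both genes the arrays with DEX lay above those without it, in cells without and with CHX. Of all probe sets, 6.87% were higher with no overlap for DEX without CHX and 4.26% for DEX with CHX. Since the genes were chosen on these contrasts, nothing is read from that share. Over all probe sets the median DEX change was 0.10 without CHX and -0.12 with it, and -0.10 and 0.04 after arrays were centred on their medians. With that centring the difference of AT2G47960 without CHX was 0.64 in place of 0.84. The fits were repeated in 20 alternative ways, several of which, set out at the end, cannot move a fitted difference. Over all 20 alternatives, the log2 difference of AT2G47950 ran from 3.02 to 3.33 without CHX and from 4.43 to 5.25 with it. That of AT2G47960 ran from 0.61 to 1.06 without CHX and from 2.20 to 2.87 with it. Without replicate 1 of CHX alone, whose hybridisation controls were low, the differences with CHX were 4.64 for AT2G47950 and 2.73 for AT2G47960.

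RNA quality moved with DEX in the cells given CHX. The ratio of 3' to 5' ubiquitin signal, which rises as RNA or its labelled copy gets shorter, was 6.10, 5.57 and 5.08 with CHX alone and 6.51, 7.41 and 8.01 with both. A second pair of ubiquitin probe sets gave 3.92, 3.95 and 3.89 with CHX alone and 7.78, 4.86 and 8.59 with both. The GAPDH ratio was 2.19, 2.19 and 2.30 with CHX alone and 2.50, 2.56 and 4.33 with both, and the actin ratios of these groups overlapped. The part of this shift in the difference with CHX was not tested. Without CHX the ubiquitin ratios overlapped, at 6.26, 7.58 and 6.28 untreated and 6.25, 5.97 and 6.78 with DEX. Those of the second pair overlapped too, at 6.22, 5.27 and 5.35 untreated and 5.46, 5.02 and 4.90 with DEX. In that comparison AT2G47950 stood 9.28-fold and AT2G47960 1.78-fold higher with DEX, and the part of RNA quality was not tested there either.

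CHX without DEX uses the untreated and CHX arrays that also serve as baselines of the DEX contrasts. The choice of the 2 genes thus used these arrays, and this contrast, too, is only described. AT2G47960 was 3.75-fold lower with CHX alone (log2 change -1.91, SE 0.40, n = 3 per group), with every array under every untreated array, as were 24% of all probe sets. AT2G47950 differed by -0.35 (SE 0.34, n = 3 per group), and its arrays overlapped. Of all probe sets, 16.1% (3653) passed in limma in the lower direction and 10.9% (2473) in the higher, so lower values with CHX were common on these arrays. With arrays centred on their medians 2745 passed lower and 2532 higher, and the median change of all turned from -0.05 to 0.08. With quantile normalization 3343 passed lower and 2877 higher. The size of the excess of lower over higher values thus depended on the scaling, while lower values stayed the more numerous. Without replicate 1 of CHX alone the change of AT2G47960 was -2.11.

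Root markers and RNA quality also moved with CHX alone. The 4 measured root markers had a median log2 change of -3.53 in this comparison, where that of all probe sets was -0.05. In limma 3 of the 4 fell, as did 16.1% of all probe sets. The ubiquitin ratio, at 6.10, 5.57 and 5.08 with CHX alone, lay under the untreated 6.26, 7.58 and 6.28. The second pair of ubiquitin probe sets gave 3.92, 3.95 and 3.89 with CHX alone and 6.22, 5.27 and 5.35 untreated. The GAPDH ratio, at 2.19, 2.19 and 2.30, lay under the untreated 3.34, 2.49 and 4.17, while the actin ratios of these groups overlapped. The part of these shifts in the low level of AT2G47960 with CHX was not tested.

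CHX was then compared in cells given DEX. AT2G47950 was higher with both treatments than with DEX alone, by 1.29 on the log2 scale (SE 0.34) or 2.45-fold, and the 2 groups did not overlap. Of all probe sets, 13.2% were higher with no overlap in this comparison, and the median change of all was -0.46. With arrays centred on their medians the difference was 1.78. AT2G47960 had a difference of -0.22 (SE 0.40), its arrays overlapped, and the sign turned with quantile normalization (0.15), with centring (0.27) and without replicate 2 of both treatments (0.13).

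The DEX difference was larger with CHX than without it by 1.65 for AT2G47950 (SE 0.48) and by 1.69 for AT2G47960 (SE 0.56), on the log2 scale. These interactions were of like size in this fit but came from different groups. They were 1.35 and 1.99 with quantile normalization, 1.65 and 1.36 with a floor of 64, and 2.005 and 2.047 with centring. For AT2G47950 the level with both treatments stood above that with DEX alone, while its levels without DEX overlapped. For AT2G47960 the levels with DEX overlapped, and the level with CHX alone stood below untreated. The 2 genes were read on the same arrays, so the difference between their log2 changes could be taken array by array. AT2G47950 exceeded AT2G47960 by 2.38 for DEX without CHX and by 2.34 for DEX with CHX (SE 0.47 each), and by 1.55 for CHX without DEX (SE 0.47).

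**Figure D2:**
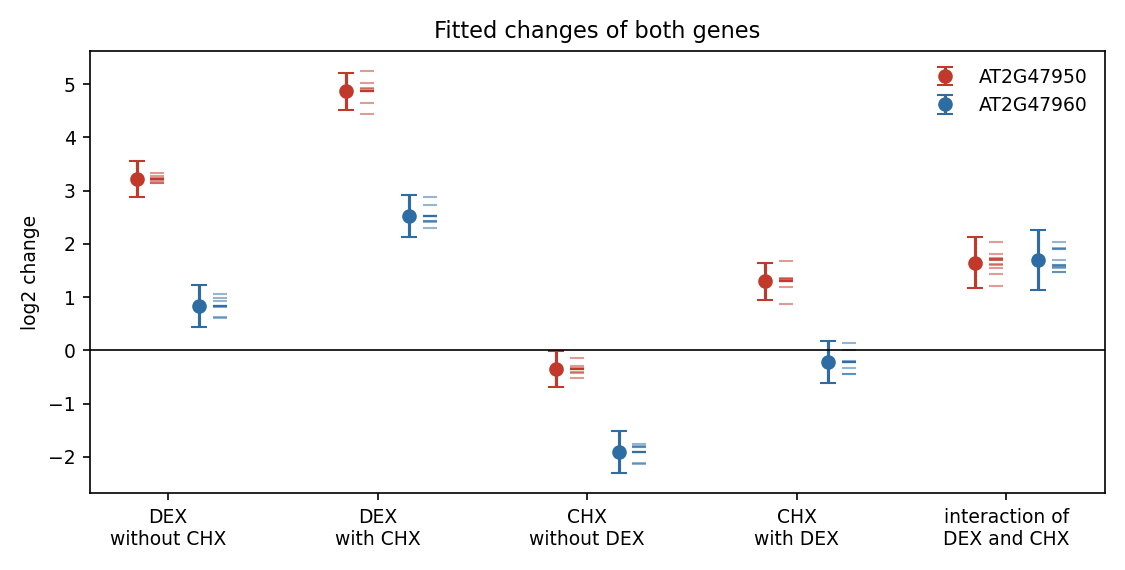
Fitted log2 change (vertical axis) of AT2G47950 and AT2G47960 for the DEX and CHX contrasts and their interaction. Points are fitted changes, bars are 1 standard error from the fit, and the short dashes are the change with each of the 12 arrays left out in turn. The DEX changes of AT2G47950 lie about 2.38 and 2.34 above those of AT2G47960, and the interactions, 1.65 and 1.69, lie side by side.

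Within groups the adjacent genes did not track each other closely. After the group mean was taken off each array, the deviations of the 2 genes had the same sign on 4 of 12 arrays, and their Pearson r was 0.24 over these 12 arrays, which share scaling and labelling for both genes. The clearest shared deviation was in the group with both treatments, where replicate 2 was lowest (-0.77 for AT2G47950 and -0.69 for AT2G47960) and replicate 3 was highest (0.87 and 0.45). The second ubiquitin ratio had the same order there, at 7.78, 4.86 and 8.59 on replicates 1 to 3. The first ubiquitin ratio, at 6.51, 7.41 and 8.01, did not. The part of RNA quality in this deviation was not tested. With CHX alone, replicate 1 deviated by -0.44 for AT2G47950 and by 0.41 for AT2G47960, in opposite directions. Over the 12 arrays with group means left in, r was 0.74, which is a description of the shared treatment pattern.

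The genes next to this pair on the chromosome were then examined. Of the 10 protein-coding loci on each side, 6 of 20 had a probe set of their own. For DEX without CHX, 0 of these 6 passed in limma, against 0.0132% of all probe sets. An unadjusted p under 0.05 was found for 0 of them, and for 1461 of all 22746 probe sets. For DEX with CHX, 0 of 6 passed, against 0.273% of all. Again 0 had an unadjusted p under 0.05, against 1781 of all 22746 probe sets. With shares this low, 0 of 6 is the likely count for any 6 probe sets. These counts thus cannot show whether the response stops at the pair. The median log2 change of the 6 neighbours was -0.02 without CHX and -0.10 with it, near the medians of all probe sets, 0.10 and -0.12.

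AT2G47970, the locus directly after AT2G47960, which encodes an NPL4 family protein, stood at 11.78 ± 0.29 (SD, n = 3) untreated and 11.80 ± 0.26 (SD, n = 3) with DEX. With CHX it was at 11.03 ± 0.16 (SD, n = 3), and with both at 11.01 ± 0.15 (SD, n = 3), so its DEX differences were 0.02 and -0.02 (SE 0.18 each). On the other side the nearest measured gene was NET3C, of a family of actin-binding proteins, 4 loci from AT2G47950. It was dim, at 4.98 ± 0.89 (SD, n = 3) untreated and at the floor on all 3 arrays with CHX alone. The 3 loci between NET3C and AT2G47950 were not analysed here.

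The other measured neighbours were AT2G47890, a B-box zinc finger gene (DEX differences 0.09 and -0.29 without and with CHX, SE 0.25), and AT2G47880, a glutaredoxin family gene (0.36 and -0.78, SE 0.68). On the far side AT2G48030 had -0.45 and 1.07 (SE 0.52), and AT2G48060, the PIEZO channel gene, -0.31 and -0.18 (SE 0.27) on the brightest of its 3 probe sets. With CHX alone 3 of the 6 neighbours passed in limma, against 26.9% of all probe sets. AT2G47890 rose (log2 change 2.08, SE 0.25, limma adjusted p = 2.97e-05), while AT2G47970 (-0.75, SE 0.18) and AT2G48030 (-1.52, SE 0.52) fell. Of the other probe sets of AT2G48060, 1 passed in the lower direction (-1.89, limma adjusted p = 0.0454) and the other did not (-1.34, limma adjusted p = 0.0539), while the brightest was at -0.27. Neither fall, of AT2G47970 or AT2G48030, passed with arrays centred on their medians, where 1 of the 6 passed.

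**Figure D3:**
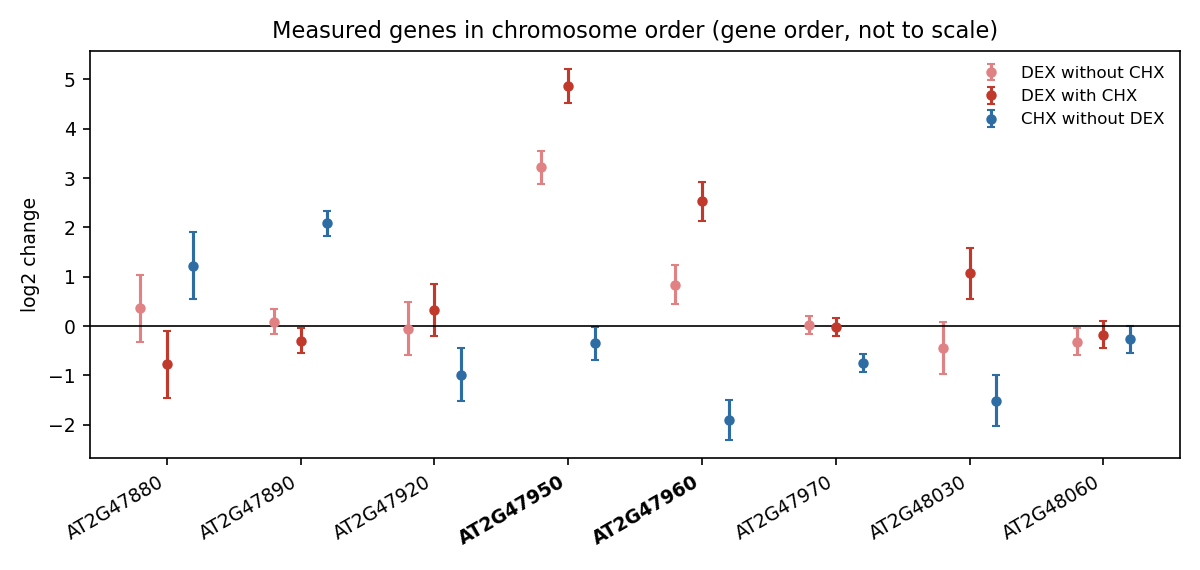
Log2 change (vertical axis) of the measured genes around AT2G47950 and AT2G47960, which are in bold, in chromosome order from left to right. Points are fitted changes for DEX without CHX, DEX with CHX and CHX without DEX, and bars are 1 standard error. AT2G47950 and AT2G47960 stand at 4.86 and 2.53 for DEX with CHX, and the adjoining AT2G47970 at -0.02.

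Since AT2G47960 is a TRAPP relative, 13 other genes of that complex were listed from background knowledge, of which 12 were measured. Earlier results of these data were known when the list was made. For DEX without CHX, 0 of 12 passed in limma, against 0.0132% of all probe sets, and 1 had an unadjusted p under 0.05, as had 1461 of all 22746. For DEX with CHX, 0 of 12 passed, against 0.273% of all, and 0 had an unadjusted p under 0.05, as had 1781 of all. With shares this low, 0 of 12 is the likely count for any 12 probe sets, so these counts cannot show that the TRAPP genes did not respond. The DEX changes of the 12 TRAPP genes with CHX ran from -0.65 to 0.67, with a median of -0.21 where that of all probe sets was -0.12. AT2G47960, at 2.53, lay above that whole range, but it was chosen for this value. With CHX alone 4 of the 12 fell and 1 rose, with a median of -0.95, where 26.9% of all probe sets passed and their median was -0.05. AT2G47960, at -1.91 (SE 0.40), lay below the range of the 12, which ran from -1.53 (SE 0.39) to 0.84. With a floor of 64 its change was -1.58. The arrays with CHX alone are also the baseline of the DEX change it was chosen for, so nothing is read from its place below the range.

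Among the brightest TRAPP genes, AT4G39820, a relative of TRAPPC12, rose with CHX (log2 change 0.84, SE 0.15, limma adjusted p = 0.000859). AT5G54750, for the BET3 core subunit, fell (-1.39, SE 0.23, limma adjusted p = 0.000428), and so did AT1G80500, for the TRS20 core subunit (-1.09, SE 0.22, limma adjusted p = 0.00218). The core subunit genes AT5G02280 (-0.07, SE 0.22), AT5G58030 (-0.15, SE 0.30) and AT1G51160 (-1.12, SE 0.40) did not pass. CLUB, for the large subunit TRS130 (-1.53, SE 0.39), and AT5G65950, a relative of TRAPPC11 (-1.39, SE 0.30), also fell, and were named after their values were seen. With CHX alone 11 of the 12 had changes below 0, AT4G39820 being the exception. With DEX the largest difference of the list in the higher direction was 0.67, that of AT5G16280 in cells given CHX, also named after its value was seen.

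**Figure D4:**
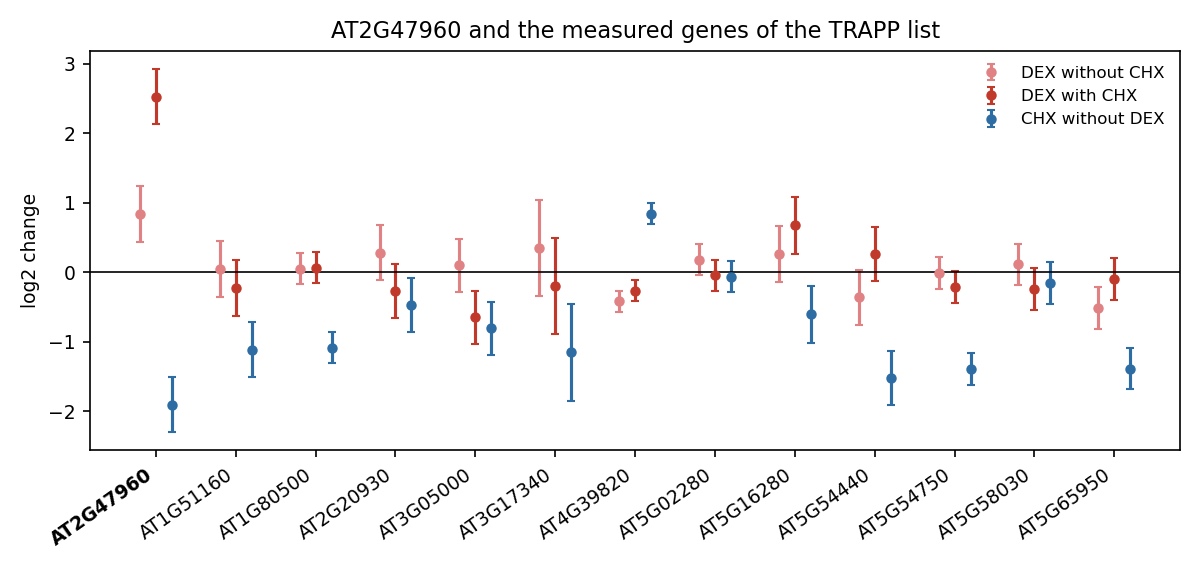
Log2 change (vertical axis) of AT2G47960, in bold at the left, and of the 12 measured genes of the TRAPP list. Points are fitted changes for DEX without CHX, DEX with CHX and CHX without DEX, and bars are 1 standard error. For DEX with CHX the 12 genes lie between -0.65 and 0.67, and AT2G47960 lies at 2.53.

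Classical seed genes that depend on ABI3 gave a second comparison. Of 26 listed, 9 were measured. The list was drawn up with earlier results of these data known, so its counts are a description and not independent support. For DEX with CHX 4 of 9 rose in limma, against 0.255% of all probe sets in that direction, with a median of 1.05. These were LEA18 (2.15, SE 0.22), AtLEA4-1 (1.97, SE 0.26), LEA4-5 (1.40, SE 0.24) and the seed maturation gene AT3G22490 (2.80, SE 0.43), of which LEA18 and AT3G22490 were named after their values were seen. The count was 1 without replicate 2 of CHX alone and 2 without replicate 3 of CHX alone or replicate 1 or 3 of both, or with a floor of 64. It was 0 in a fit of only the 6 arrays compared. The bright LEA genes AT3G15670 (0.89, SE 0.22) and AT3G17520 (0.95, SE 0.20) did not pass. Nor did AT5G44310 (1.05, SE 0.25), PAP85 (0.12, SE 0.66) or OLEO3 (-0.04, SE 0.53), named after their values were seen.

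With CHX alone 6 of the 9 seed genes fell, where 16.1% of all probe sets did, with a median of -1.54 against -0.05 for all. The mean log2 level of the list ran from 11.62 to 11.73 on untreated arrays, 10.02 to 10.54 with CHX and 11.36 to 11.75 with both. AT2G47960, too, was lower with CHX alone and overlapped its untreated level with both. AT2G47950 did not: its level with CHX alone overlapped the untreated one, and with both it stood far above. For DEX without CHX 0 of 9 seed genes passed in limma, against 0.0132% of all probe sets, and 2 had an unadjusted p under 0.05, as had 1461 of all 22746. At so low a share, 0 is the likely count for any 9 probe sets. The median of the 9 seed genes was 0.16, where that of all probe sets was 0.10, and their changes ran from -0.74 to 2.03. The highest was that of OLEO3 (SE 0.53, limma adjusted p = 0.549), named after its value was seen. AT2G47950 differed by 3.21, and AT2G47960, at 0.84, lay inside the range of the seed genes.

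The genes whose pattern over the 12 arrays was most like each of the 2 were found among 12638 others above the floor on at least 6 arrays, by Pearson r of log2 intensity. The 12 arrays fall into 4 treatment groups, so r describes mostly the group pattern. For AT2G47960 the 5 nearest had r from 0.91 to 0.94. They were the dehydrin-type gene LEA (AT2G21490, r = 0.94), AT3G54940, for a papain-type protease (0.93), the LEA gene AT3G53040 (0.93), AT2G21820 (0.91) and AT1G04560, for a small membrane protein of the AWPM-19 family (0.91). All 5 were lower with CHX alone than untreated and with both differed from untreated by -0.10 to 0.37 on the log2 scale, where AT2G47960 differed by 0.62. LEA, for example, stood at 13.60 ± 0.36 (SD, n = 3) untreated, 12.19 ± 0.65 (SD, n = 3) with CHX and 13.96 ± 0.07 (SD, n = 3) with both.

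For AT2G47950 the nearest gene was AT5G35580, for a protein kinase, at r = 0.95. It stood at 9.95 ± 0.29 (SD, n = 3) untreated, 10.78 ± 0.22 (SD, n = 3) with DEX, 9.77 ± 0.14 (SD, n = 3) with CHX and 11.32 ± 0.09 (SD, n = 3) with both. Its DEX differences were thus 0.82 and 1.55 on the log2 scale, smaller than the 3.21 and 4.86 of AT2G47950. The next were AT5G44570 (r = 0.86), AT5G62620, of a galactosyltransferase family (0.86), AT4G07750 (0.85) and AT4G24175 (0.84). On 4 of the 12 arrays AT5G44570 had only the floor value, among them all 3 untreated ones, and AT4G07750 did on 2. AT2G47960 ranked 28 among the genes most like AT2G47950, and AT2G47950 ranked 75 among those most like AT2G47960, at r = 0.74 in both directions.

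**Figure D5:**
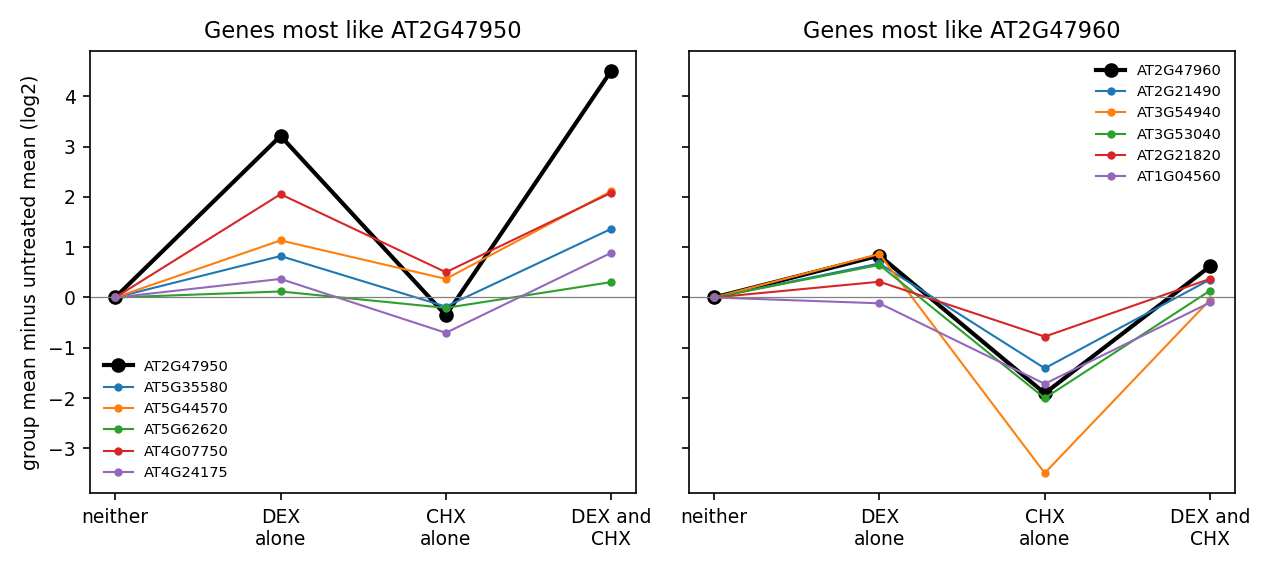
Group mean log2 intensity minus the untreated mean (vertical axis) for AT2G47950 and the 5 genes most like it at the left, and for AT2G47960 and its 5 at the right. Points are means of 3 arrays, and lines only join the groups of a gene. The left panel peaks in both groups with DEX, where AT2G47950 reaches 4.51 above untreated, and the right panel dips with CHX alone, where AT2G47960 lies at -1.91.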

How the data were processed

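Biotin-labelled total RNA from 12 samples was read on Affymetrix Arabidopsis arrays, per the labels. The deposited values are linear intensities. With 2% trimmed from both ends, every array had a mean of 500.0, as after global scaling; what software the authors used is not given in the sources here. Here, values under 16 were set to 16 and log2 was taken. Without the 64 control probe sets, 22746 remained for testing.

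Of these, 13513 name 1 gene in the platform annotation, 503 several and 8730 none; 13436 matched the TAIR10.1 gene table by Entrez ID. A gene with several probe sets is represented by the one of highest mean. The annotation used here names no probe set for ABI3, so its own level is not reported. Roles of genes are background knowledge, since the table holds no product names.

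Group means were fitted on all 12 arrays with limma 3.58.1 in R 4.3.3 (eBayes with a variance trend), with Benjamini-Hochberg adjustment over 22746 probe sets and a threshold of 0.05. The planned limma test of both members for CHX without DEX was run, but its p-values are left out of the text, since the choice of members used the same arrays. The fit was tested on simulated data. Named genes are the 2 members, the 5 most correlated with each, the 3 nearest measured neighbours on each side, up to 6 TRAPP and 4 seed genes of highest mean; exceptions are marked. The members and lists were chosen with earlier results of these data known. Tables were made in Python 3.11.15 (pandas 2.3.3) and figures in matplotlib 3.10.9. The number of arrays limits the precision.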

Additional observations from a re-analysis of the deposited data

How the results depend on the processing

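The fits were repeated after quantile normalization or centring of each array, with a floor of 64 or none (adding 1 before log2), without the variance trend or the dimmest 20% of probe sets, with replicate numbers as a block, on just the 6 arrays of a comparison, and with each array left out in turn. The DEX changes and interactions of AT2G47950 and AT2G47960 moved by less than 1 residual SD in each of them, and so did the changes for CHX with DEX, except with centring, which gave 1.78 for AT2G47950 and 0.27 for AT2G47960. Several of these settings cannot move a fitted change and alter only its SE, so their agreement carries no weight. These are the fits without the variance trend or the dimmest probe sets, with the block, and on the 6 arrays compared. Leaving out an array of a group not compared is another. A floor of 64 likewise left every change of AT2G47950 as it was. With 1 array left out, the changes for CHX with DEX ran from 0.86 to 1.68 for AT2G47950 and from -0.44 to 0.13 for AT2G47960. For CHX without DEX, over all 20 alternatives, the change ran from -2.13 to -1.58 for AT2G47960 and from -0.51 to -0.14 for AT2G47950. A floor of 64 lies above some values of AT2G47960 with CHX alone, and gave -1.58 there.

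Of all probe sets, the DEX comparison had 3 past the threshold without CHX and 62 with it, and CHX without DEX had 6126. The 3 became 5 after quantile normalization, 1 with centring, 21 with a floor of 64, 0 without the variance trend, 1 in the 6 arrays compared, and 0 to 3 with 1 array left out: 0 when replicate 1 or 2 of the untreated group or 1 or 3 of DEX alone was dropped, and 1 when replicate 2 of DEX alone was. The 62 became 28 without the trend, 0 in the 6 arrays compared, and 21 to 112 with 1 array left out: dropping replicate 2 of CHX alone gave 21, its replicate 3 gave 28, either replicate 1 or 3 of both treatments gave 30, and replicate 2 of both gave 112. The background shares for DEX move with these counts.

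Arrays with the same replicate number were not more alike than others. Their deviations from group means correlated between -0.44 and 0.29 over 18 same-numbered pairs, over 0.1 in 4 of them. Pairs with different numbers ran from -0.25 to 0.33. These correlations do not settle whether the numbers mark shared preparations. With the replicate number as a block the log2 change of AT2G47960 for CHX without DEX was -1.91 (SE 0.43).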
